A study of Mus musculus with 12 samples.

Results

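The comparison set 4 RNA-seq libraries from ears labelled as treated with isoliensinine (IsoL) against 4 libraries from ears labelled as having had no treatment (Blank), all from wild-type mice. These 8 libraries were chosen by their titles from 12 in the series. The other 4, the Model group, came from wild-type ears treated with MC903 and are given only beside a result. Isoliensinine is the only treatment named for the IsoL ears, and the sources used here do not say whether those ears also received MC903, nor the strain, age, dose or duration. Replicates are described as biological, but no library is tied to an animal, so each p-value rests on the spread among libraries.

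Isoliensinine is a bisbenzylisoquinoline alkaloid of the lotus seed embryo. MC903 (calcipotriol) is a vitamin D analogue that, on mouse ears, drives keratinocytes to release the cytokine TSLP and is widely used to raise a dermatitis resembling atopic dermatitis. The vitamin D receptor switches on Cyp24a1, the enzyme that breaks down active vitamin D, so Cyp24a1 RNA is a standard readout of receptor activity. The series is titled for cathepsin B, a lysosomal cysteine protease, and for an axis of IL-17A and neutrophils. An ear sample holds epidermis, dermis, hair follicles, sebaceous glands, cartilage and skeletal muscle, and in such bulk RNA fewer cells of a type and less RNA per cell cannot be told apart.

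The Blank libraries held 15791536 to 17004780 counts and the IsoL libraries 16493348 to 18771831. Of 56691 genes in the table, 15403 reached an FPKM of 1 in at least 4 of the 12 libraries and were tested. edgeR's quasi-likelihood test called 10852 of them at an adjusted p under 0.05, a share of 70.5%, with 5616 higher in IsoL (36.5%) and 5236 lower (34%). At 2-fold or more, 1781 genes were higher (11.6%) and 942 lower (6.12%). The split of the calls rests on the scaling: 51.8% of called genes were higher in IsoL with TMM factors, and 36.1% with none, when the median gene moved from a log2 change of 0.02 to -0.18. Differences between an IsoL and a Blank library, as a root mean square over genes of log2 CPM (TMM-scaled counts per 1000000), were 1.03 to 1.12, against 0.338 to 0.391 between IsoL libraries and 0.293 to 0.317 between Blank libraries. The biological coefficient of variation was 9.24% in IsoL and 3.58% in Blank. The libraries of the 2 groups did not overlap for 63.7% of tested genes, 33.4% with IsoL higher and 30.4% lower. IsoL libraries lay 0.631 to 0.723 from the Model libraries on the same measure, and 24.1% of tested genes were called higher and 25.2% lower in IsoL than in Model. Between Model and Blank, 70.1% were called, 35.3% higher in Model and 34.9% lower. Counts of called list members below are read against these shares. A gene under the FPKM limit in every Blank library was tested only through IsoL or Model libraries, which favours rises over Blank.

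The largest rise, among called genes with a mean FPKM of at least 5 in the higher group, was in Cyp24a1. Its level was 1.64, 1.07, 1.76 and 1.61 CPM in Blank-1 to Blank-4 and 5499, 5609, 4600 and 5429 CPM in IsoL-1 to IsoL-4. No library of one group came near the other, and the log2 change was 11.76 ± 0.12 (SE; edgeR adjusted p = 1.25e-25), which is 3460-fold. The Model ears, treated with a vitamin D analogue, had 1881 ± 124 CPM (mean ± SD, n = 4), 2.81-fold below the IsoL ears (edgeR adjusted p = 2.4e-14). S100g, a calcium-binding protein induced by vitamin D in the gut, had 1 count in all Blank libraries and 236 in IsoL, a ratio of 246 (95% exact binomial interval 43.7 to 9750, counting error only). Vdr, the receptor itself, rose by only 1.29-fold, and Cd14, a receptor for bacterial lipopolysaccharide and a vitamin D target in human cells, rose 15.5-fold. In all, 5 of 7 tested genes of a vitamin D list rose and 1, Rxra, fell. Trpv6, a calcium channel, was not called, and Cyp27b1 was too low to test, with 43 counts in each group.

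Tslp, the epithelial cytokine of atopic skin, was high in IsoL. Blank libraries had 3.78, 7.11, 4.57 and 5.48 CPM and IsoL libraries 828, 936, 799 and 848 CPM, a log2 change of 7.35 ± 0.13 (SE; edgeR adjusted p = 1.88e-21). The groups did not overlap, and the Model mean of 190.2 ± 27.6 CPM lay between them, 4.48-fold below IsoL (edgeR adjusted p = 1.05e-14). Comparisons with Model and with Blank share the IsoL libraries. On the length-scaled FPKM level, Tslp went from 4.24 in Blank to 605 in IsoL, while Il33, another epithelial alarmin, went from 49 to 102 and rose 2.38-fold. Akr1d1, a steroid 5-beta-reductase best known from liver, also rose, from 0.766, 0.339, 0.468 and 0.461 CPM in Blank to 434, 570.5, 366 and 509 CPM in IsoL (log2 change 9.82 ± 0.23).

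**Figure D1:**
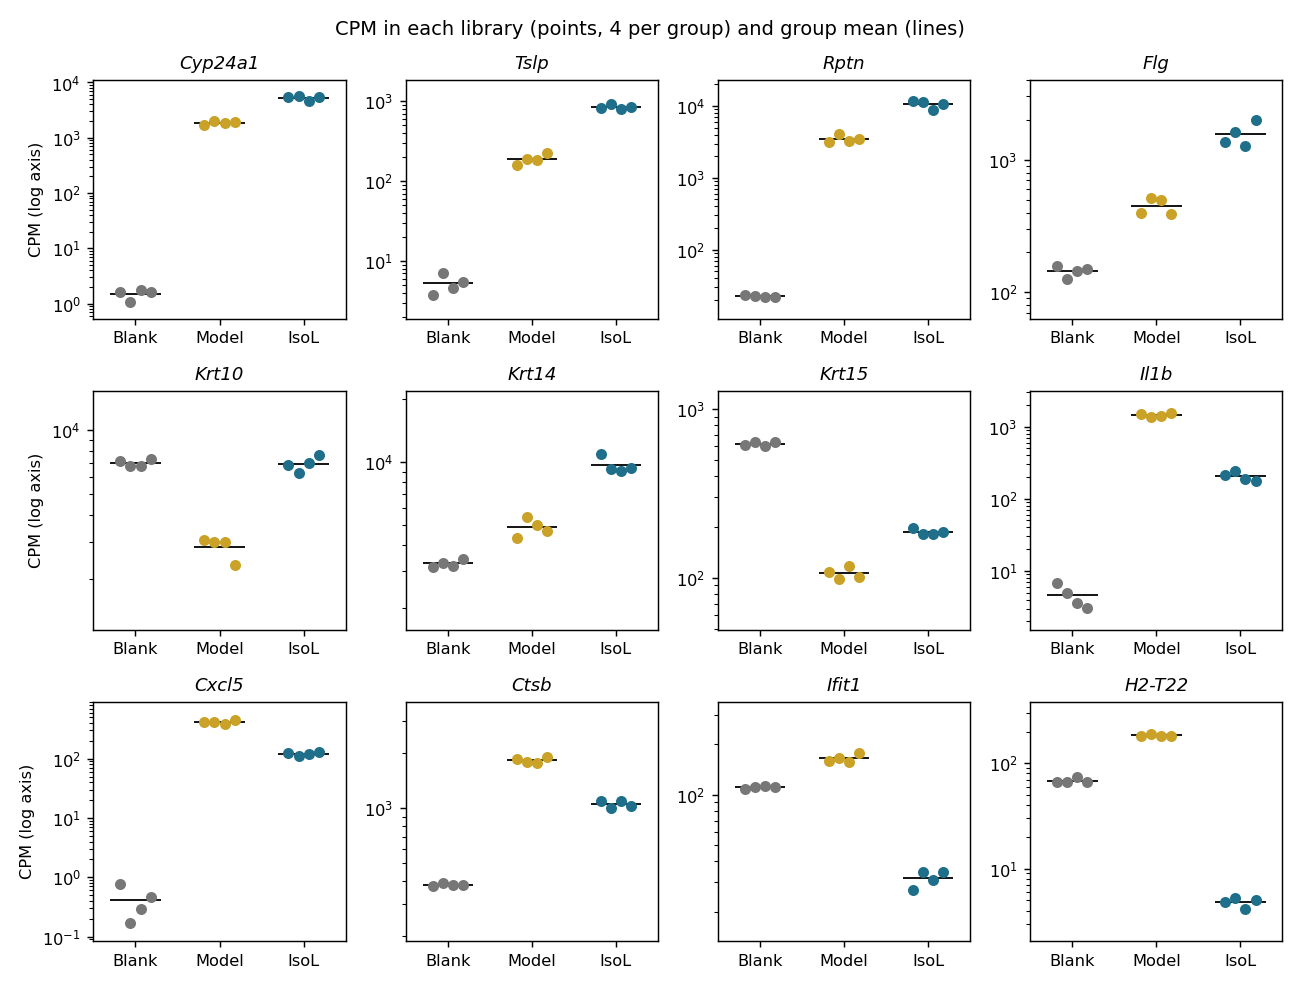
Each panel plots one gene's CPM on a log axis in the 4 libraries of the Blank, Model and IsoL groups, with a line at the group mean. Cyp24a1, Tslp, Rptn, Flg and Krt14 are highest in IsoL, Il1b, Cxcl5 and Ctsb lie between Blank and Model, Krt10 in IsoL overlaps Blank, and Ifit1 and H2-T22 in IsoL lie below every other library.

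In the epidermis, genes of stressed and cornifying keratinocytes rose while several genes of the basal layer fell. All 16 tested stress keratin and small proline-rich (SPRR) genes rose, against 36.5% of all tested genes, with a median log2 change of 5.01 against 0.02. Krt6b, a keratin of wounded and hyperproliferating epidermis, went from 43.8, 23, 18.8 and 22.3 CPM in Blank to 5012, 4207, 4170 and 4289 CPM in IsoL, a log2 change of 7.35 ± 0.19. Krt6a rose 86.1-fold, Krt16 104-fold and Sprr1b, a cross-linked envelope protein, 84.2-fold. Each of these genes was also above its Model level, Krt6a by 2.05-fold and Krt16 by 2.45-fold.

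Of 27 cornified envelope and differentiation genes, 20 rose, 4 fell and 3 were not called, where 36.5% of all tested genes rose and 34% fell. Rptn (repetin), a filaggrin-like matrix protein, stood at 23.3, 22.5, 22 and 22.1 CPM in Blank and 11580, 11450, 8701 and 10810 CPM in IsoL (log2 change 8.89 ± 0.11; edgeR adjusted p = 1.07e-23). Lce3a, Lce3b, Lce3c and Lce3d, late cornified envelope genes induced by barrier injury, rose by log2 changes of 7.05, 6.41, 7.58 and 8.24. Flg, encoding the barrier protein filaggrin, rose from 158, 127, 144 and 149 CPM to 1370, 1627, 1268 and 2006 CPM, a 10.8-fold change. Its relative Flg2 went the other way, from 2142, 2118, 2110 and 2178 CPM to 331, 427, 311 and 398 CPM, 5.83-fold lower. Lce1m was 6.42-fold lower, Ivl (involucrin) 1.67-fold lower and Krt2, a late suprabasal keratin, 1.74-fold lower.

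Loricrin and the main suprabasal keratin did not separate IsoL from Blank. Lor had 522, 534, 519 and 522 CPM in Blank and 612, 433, 599.8 and 420.3 CPM in IsoL, with 2 IsoL libraries above and 2 below all Blank libraries (log2 change -0.02 ± 0.10; edgeR adjusted p = 0.844). Krt10 had 7148, 6770, 6792 and 7289 CPM and 6856, 6287, 7020 and 7605 CPM (log2 change -0.01 ± 0.07; edgeR adjusted p = 0.893), and was called lower only without scaling factors or in the FPKM fits. Both were above Model, where their means were 172 ± 19.9 and 2838 ± 347 CPM. Krt1, the partner of Krt10, rose 3.78-fold over Blank, so the pair did not move together.

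The same was true of the basal keratin pair. Krt14 rose from 3138, 3295, 3177 and 3439 CPM in Blank to 10960, 9216, 9011 and 9349 CPM in IsoL (log2 change 1.56 ± 0.07). Its partner Krt5 fell from 3066, 3089, 3114 and 3365 CPM to 2030, 1543, 2030 and 1601 CPM (log2 change -0.81 ± 0.08). On the FPKM level, Krt14 went from 2002 to 5174 and Krt5 from 1551 to 775. Krt15, a keratin of resting basal cells, fell from 607, 639.6, 606 and 634 CPM to 196, 182, 182 and 188 CPM, and Col17a1, an anchor of basal cells to the basement membrane, was 2.66-fold lower. Of 9 basal keratinocyte genes, 7 fell and 2 rose. Krt14 also set the summed level of the list, 8912 to 9674 CPM in Blank and 12050 to 14410 CPM in IsoL.

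Most proteases of the cornified layer rose. So did 9 of 12 tested serine protease inhibitors of the skin, against 36.5% of all tested genes. Without scaling factors and in the FPKM fits, 6 of the 12 inhibitors were called higher. Among 14 kallikreins and related proteases, which cut corneodesmosomes and activate peptides, 12 rose and 1, Tmprss4, fell. Klk13 went from 9.86, 9.37, 7.9 and 8.88 CPM to 668, 598, 507 and 531 CPM, and Klk6 rose 45.5-fold, Klk12 119-fold and Klk14 33.6-fold. All 14 were higher in IsoL than in Model, with a median log2 difference of 1.05. Spink5, encoding the kallikrein inhibitor LEKTI, rose 3.5-fold, and Serpinb12 was 2.25-fold lower. Tmprss11b, a membrane serine protease of stratified epithelia, had 10 counts in all Blank libraries and rose by a log2 change of 8.65 ± 0.26.

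Cell junctions and barrier lipids were divided. Of 20 tested desmosome and tight junction genes, 11 rose and 9 fell, against 36.5% and 34% of all tested genes. Dsc2 rose 10.4-fold and Dsg1b 3.17-fold, while Tjp3 and Cldn8, of tight junctions, were 3.17-fold and 3.07-fold lower. Of 19 barrier lipid genes, 12 rose and 5 fell. Degs2, which makes phytoceramides, rose 27.4-fold and Lipn, a lipase of differentiating keratinocytes, was 4.64-fold lower. Against Model, 17 of the 19 were higher in IsoL and 1 lower. Cholesterol synthesis genes changed little against Blank, with a balance that rests on the scaling. Of 20, 10 were higher and 4 lower, or 5 and 9 without scaling factors and in the FPKM fits, at log2 changes from -0.44 to 0.54, with a median of 0.2 that ran from 0 to 0.25 over the alternatives; 19 of 20 were above Model.

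Of 9 tested genes of the EGF receptor and its ligands 5 rose and 4 fell, against 36.5% and 34% of all tested genes. Most cell cycle genes rose. Epgn and Areg, ligands of the EGF receptor, rose 60.9-fold and 46.3-fold, whereas Btc was 2.15-fold lower. Of 24 cell cycle genes 21 rose and none fell, among them Mcm5, of the replicative helicase, at 3.13-fold and Plk1, a mitotic kinase, at 2.22-fold. Of 19 tested Wnt and Hedgehog genes 10 fell, 3 rose and 6 were not called, against 34% lower and 36.5% higher among all tested genes. Wnt10b, a Wnt ligand of the follicle, fell from 8.16, 8.29, 9.13 and 9.11 CPM to 1.14, 0.962, 0.937 and 0.916 CPM, and Axin2, a Wnt target, was 2.96-fold lower.

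**Figure D2:**
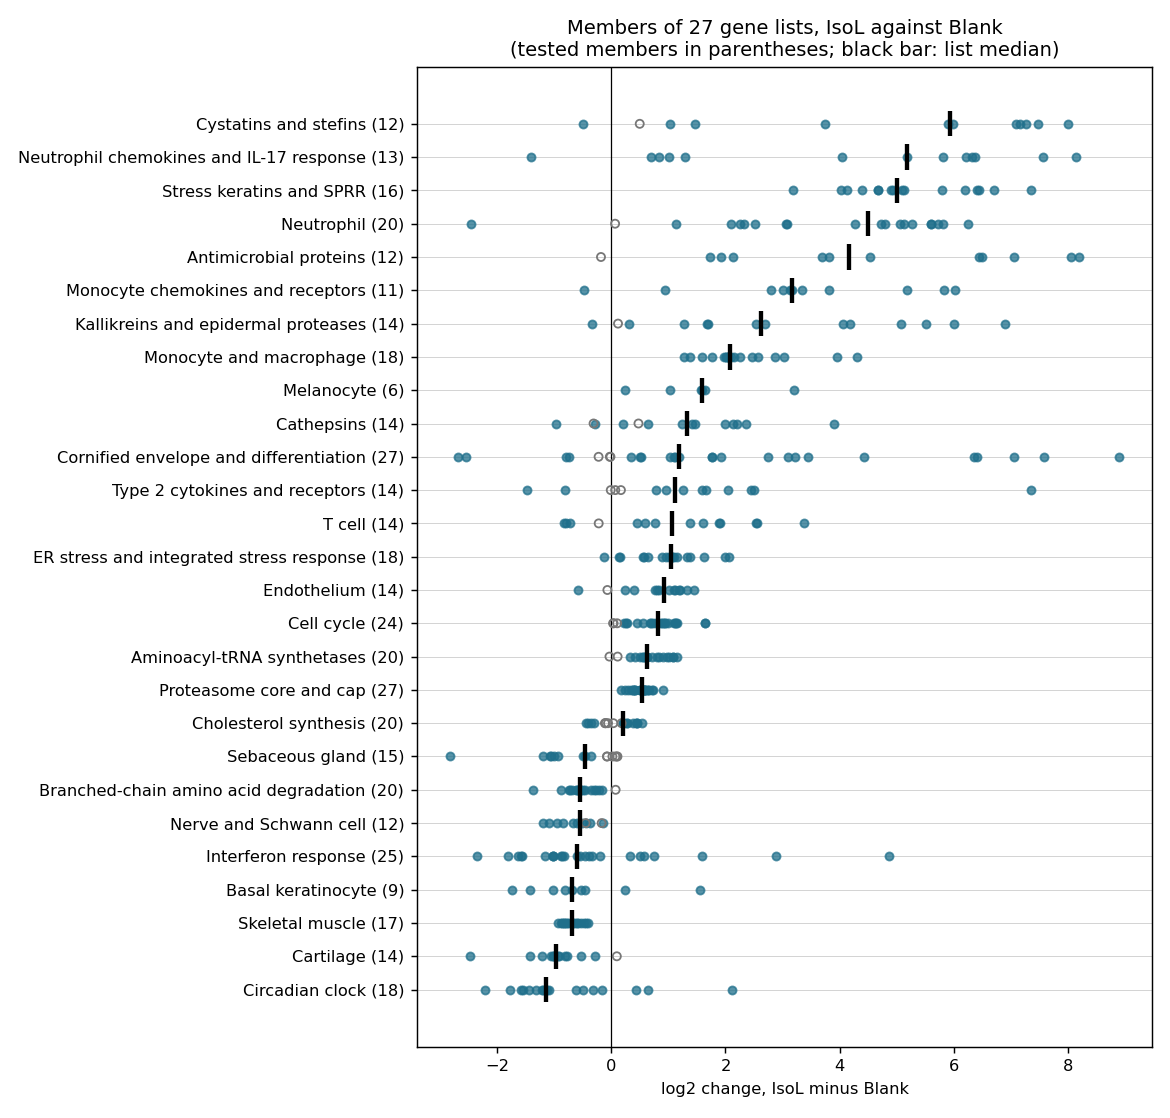
Each row is a gene list and each point the log2 change, IsoL minus Blank, of a tested member, filled where edgeR's adjusted p was under 0.05 and open where it was not, with a black bar at the list's median. Stress keratins lie wholly to the right of 0 and skeletal muscle wholly to the left, while interferon-response genes run from -2.35 to 4.86.

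Chemokines that draw neutrophils and genes of the IL-17 response mostly rose above Blank and lay below Model. Of 14 neutrophil chemokine and IL-17 response genes, 13 were tested, 12 rose and 1, Il20, fell, with a median log2 change of 5.17, and 12 of the 13 were called lower than in Model. Cxcl5, which draws neutrophils through CXCR2, went from 0.766, 0.169, 0.293 and 0.461 CPM in Blank to 126, 112, 121 and 128 CPM in IsoL, a log2 change of 8.13 ± 0.13 (SE; edgeR adjusted p = 8.08e-22), against 416 ± 26.6 CPM in Model. Cxcl2 and Cxcl1 rose 56-fold and 16.4-fold, and Il6 36-fold. Il1b, the inflammasome-processed cytokine, rose from 6.73, 4.91, 3.57 and 3.06 CPM to 213, 242, 185 and 174 CPM, against 1463 ± 86.8 CPM in Model. Of 14 IL-1 and IL-36 family genes, 7 were below Model and 5 above, against 25.2% and 24.1% of all tested genes. Il1f10 (IL-38), a keratinocyte cytokine described as anti-inflammatory, was among the largest falls, from 22.7, 20, 19 and 20.8 CPM to 1.66, 2.1, 1.5 and 2.12 CPM. Ptgs2, the inducible cyclooxygenase, stood at 3.89, 2.6, 1.99 and 2.25 CPM in Blank and 464, 611, 379 and 650.2 CPM in IsoL, and it was 1.34-fold above Model (edgeR adjusted p = 0.00481).

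Markers of neutrophils moved with these genes, and their part in them was not tested. The summed level of the 24 listed markers was 145.9 to 196.1 CPM in Blank, 742 to 943 CPM in IsoL and 4734 to 5150 CPM in Model. Of 20 tested, 18 rose, 1 fell (Mpo, a granule enzyme of immature cells) and Il1r2 was not called, with a median log2 change of 4.49, or 3.06 with the genes that have no Blank count set at their bound. Markers with an FPKM under 1 in every Blank library passed the filter only through IsoL or Model. The count and the median therefore lean towards rises. S100a8, a subunit of calprotectin, had 29.1, 15.5, 12.6 and 13.9 CPM in Blank and 165, 156, 117 and 154 CPM in IsoL, and S100a9 rose 8.41-fold. Csf3r, the receptor for G-CSF, rose 52.8-fold. Ly6g, the defining surface marker, had no count in Blank and 13 counts in IsoL, at least 4.51-fold higher with the 4 Blank libraries together set to 3 counts. The granule genes Camp, Ltf, Elane and Prtn3 were too low to test, with 2 to 48 counts per group.

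Monocytes, macrophages and endothelium showed the same direction. All 18 monocyte and macrophage markers rose, with a median log2 change of 2.08 and summed levels of 557.1 to 594.1 CPM in Blank and 2296 to 2692 CPM in IsoL, and all 18 were below Model. Cd14 and Msr1, a scavenger receptor, led them at 15.5-fold and 19.8-fold. Ccl3 and Ccl2, chemokines that recruit monocytes, rose 56.7-fold and 14-fold. Of 14 endothelial markers 12 rose and Prox1, of lymphatics, fell; Selp (P-selectin), which tethers leukocytes, rose 12-fold. Mmp13, a collagenase, went up 137-fold. Arg1 and Chil3, of alternatively activated macrophages, rose 13.1-fold and 53.6-fold.

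Antimicrobial genes rose in 11 of 12 tested cases. Saa3, an acute-phase apolipoprotein, went from 0.547, 0.282, 0.117 and 0.288 CPM to 104, 82.8, 93.4 and 94 CPM, below the Model mean of 326 ± 22.4 CPM. Slpi, an inhibitor of neutrophil elastase, rose 89.4-fold and was above Model. Defb4, a beta-defensin, had 2 counts in Blank and 641 in IsoL, a ratio of 334 (95% exact binomial interval 92 to 2760).

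Type 2 and lymphocyte genes were raised less evenly. Il4 did not separate the groups, at 1.86, 1.47, 2.17 and 3.23 CPM in Blank and 3.32, 2.46, 1.75 and 2.23 CPM in IsoL (log2 change 0.17 ± 0.23; edgeR adjusted p = 0.519). Il13 had 4, 3, 5 and 1 counts in Blank and 11, 4, 6 and 6 in IsoL, a ratio of 1.89 (95% exact binomial interval 0.944 to 4, counting error only). A two-sided exact permutation test gave p = 0.114, or 0.228 adjusted over the 2 genes tested in this way, where 0.0286 was the smallest p possible. Il17a had no count in Blank and 2 counts, both in IsoL-3, which is not detectable as a difference at this depth (exact permutation p = 1).

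Of 14 tested type 2 cytokine and receptor genes, Tslp and Il33 included, 9 rose and 2, Il17rb and Gata3, fell, against 36.5% and 34% of all tested genes. Il4ra rose 4.13-fold and Il13ra2, a decoy for IL-13, 5.43-fold, while Il31ra and Il13ra1 were not called. Gata3, a transcription factor of type 2 lymphocytes and of the skin, was 2.79-fold lower. Il17ra rose 1.73-fold. Of 11 tested type 2 chemokine and effector genes 6 rose and 3 fell, with a median log2 change of 0.64. Ccl8 and Chil4 rose by log2 changes of 3.53 and 6.62, and Retnla and Ccr4 were 2.67-fold and 3.23-fold lower.

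T cell markers rose in 10 of 14 tested cases and fell in 3, against 36.5% and 34% of all tested genes. Without scaling factors, 8 rose and 3 fell. Cd4 and Icos rose 5.8-fold and 10.3-fold, Cd3g, Cd247 and Trdc (the delta chain of gamma-delta T cells) were lower, and Cd3e was not called. Summed T cell markers were 53.89 to 57.25 CPM in Blank and 85.9 to 106.5 CPM in IsoL. Of 5 tested eosinophil markers 4 rose, with summed levels of 4.098 to 5.749 CPM in Blank and 8.624 to 10.36 CPM in IsoL against 46.96 to 55.54 CPM in Model. Of 12 mast cell markers 11 rose. Mcpt1, a mucosal mast cell protease, had no Blank count and 134 in IsoL, at least 46.5-fold higher with the 4 Blank libraries together set to 3 counts, whereas Mrgprb2, a receptor of connective tissue mast cells, was 1.63-fold lower. Cd207 (langerin), of Langerhans cells, was 2.75-fold lower.

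Cathepsin B RNA, the protease in the title of the series, was higher in IsoL than in Blank. Ctsb stood at 378, 389, 380.3 and 380 CPM in Blank and 1092, 997, 1092 and 1024 CPM in IsoL, without overlap, a 2.75-fold rise (log2 change 1.46 ± 0.05; edgeR adjusted p = 3.18e-17). The Model mean was 1827 ± 58.5 CPM, so IsoL lay 1.74-fold below it (edgeR adjusted p = 2.32e-12). RNA levels do not measure the activity of the protease. Of 14 cathepsins 10 rose, 2 fell (Ctsf and Ctso) and Ctsw and Ctsg were not called, against 36.5% higher and 34% lower of all tested genes. Ctsl, which acts in the epidermis, went from 392, 384, 386 and 381 CPM to 2147, 2099, 1655 and 2003 CPM, and Ctss, of antigen-presenting cells, rose 4.58-fold. On the FPKM level Ctsb went from 68 to 164.

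Cysteine protease inhibitors had larger changes at the median than the cathepsins. Of 12 tested cystatins and stefins, 10 rose and 1, Cst3, fell, with a median log2 change of 5.93 against 1.33 for the cathepsins. Stfa2 went from 4.49, 4.46, 4.33 and 4.27 CPM in Blank to 702, 653, 493 and 657 CPM in IsoL, above the Model mean of 305 ± 34.3 CPM, while Cstdc4 rose 152-fold but stayed 5.7-fold below Model. The stefin A genes are near-identical copies, so the authors' counting could split their reads, and single members and the list's median are uncertain. Summed over the list, cystatins and stefins had 845.3 to 910 CPM in Blank and 5388 to 6830 CPM in IsoL. The summed cathepsins had 1676 to 1710 CPM in Blank and 4839 to 5554 CPM in IsoL, a smaller contrast than that of the medians. Among 27 lysosomal genes 20 rose and 2 fell, with a median log2 change of 0.59. Macrophages are rich in lysosomes; their markers rose in all 18 cases, and their part in this was not tested.

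Genes switched on by interferon were divided, and those that fell lay below both other groups. These genes answer type I and type II interferons through STAT and IRF factors, which bind an interferon-stimulated response element. Of 25 genes on the list, 18 were lower in IsoL than in Blank and 7 higher, and all 25 were lower than in Model. Among all tested genes, 34% were lower and 36.5% higher than in Blank, and 25.2% were lower than in Model. Mx2, a nuclear GTPase that restricts viruses, fell from 66.8, 74.3, 66.1 and 72.5 CPM in Blank to 11.6, 15, 13.2 and 15.1 CPM in IsoL (log2 change -2.35 ± 0.08; edgeR adjusted p = 1.22e-16). Ifit1, which binds viral RNA caps, went from 109, 111, 113 and 110.3 CPM to 26.9, 34.8, 31.1 and 34.4 CPM. Ifit3 went from 170.5, 168, 168 and 164 CPM to 49.1, 57.7, 51.4 and 58.1 CPM, and Usp18, Mx1 and Isg15 were 2.99-fold, 2.95-fold and 2.03-fold lower. No IsoL library of Mx2, Ifit1 or Ifit3 overlapped a Blank library. All IsoL libraries lay below all Blank libraries in 30.4% of tested genes.

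Of the 7 genes that rose, Cxcl9 rose most. Cxcl9, a chemokine for T cells, rose from 2.25, 2.82, 1.46 and 1.96 CPM to 69.7, 51.4, 56.6 and 70.3 CPM, and Cxcl10 from 5.58, 5.76, 7.67 and 5.59 CPM to 46.4, 40.3, 47.9 and 47.5 CPM. Gbp2, a guanylate-binding protein, rose from 68, 60.8, 60.4 and 55.2 CPM to 204, 169, 174 and 193 CPM and Gbp5 rose 1.42-fold, while its relative Gbp3 was 1.14-fold lower. The other 3 that rose, by log2 changes of 0.57, 0.33 and 0.74, were Oas2 and Oasl1, of the antiviral oligoadenylate synthetase family, and Zbp1, a sensor of Z-form nucleic acids. Nlrc5, the transactivator of class I genes, was 1.63-fold lower. Among 13 class I presentation genes 10 rose and 2 fell, against 36.5% and 34% of all tested genes. Without scaling factors and in the FPKM fits, 7 rose and 2 fell.

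**Figure D3:**
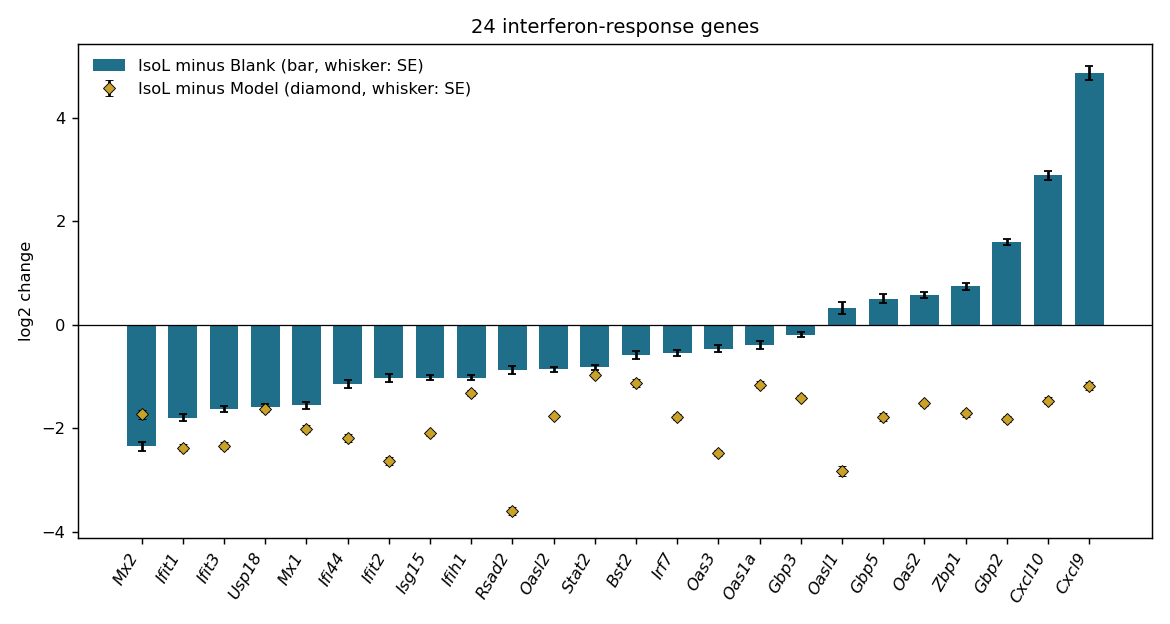
Bars show the log2 change, IsoL minus Blank, of 24 interferon-response genes and diamonds their log2 change, IsoL minus Model, with whiskers at 1 SE. Bars run from -2.35 for Mx2 to 4.86 for Cxcl9, and every diamond is below 0.

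Promoters of these genes were searched for the core of that element. RefSeq sequences (GRCm38.p6; 250 bases before the annotated start) matched 19 of the 25 genes. The core, searched as GAAA, any 2 bases and GAAA on either strand, stood in 12 of the 19, in 9 of 14 that were lower and 3 of 5 that were higher, counted per gene, against 3.46% of the 27025 gene symbols in the table and 2.98% of its 32851 promoters. A match is a description of letters and not a measured binding site. The 220 bases before the start of 5 genes, 3 that fell and 2 that rose, all chosen because they hold a match, are given 5′ to 3′ on the gene's strand, with matches in capitals; the matches of Ifit1, Ifit3, H2-T22 and Gbp2 are on the opposite strand and read TTTC, 2 bases and TTTC. H2-T22 is not on the list of 25.
Ifit1 (fell; chr19:34640669-34640888, plus strand): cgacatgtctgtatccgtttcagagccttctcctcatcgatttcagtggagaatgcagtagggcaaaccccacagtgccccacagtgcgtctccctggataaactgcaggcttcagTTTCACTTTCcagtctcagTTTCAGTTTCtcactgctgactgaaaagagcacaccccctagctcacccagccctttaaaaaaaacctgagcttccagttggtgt
Ifit3 (fell; chr19:34583309-34583528, plus strand): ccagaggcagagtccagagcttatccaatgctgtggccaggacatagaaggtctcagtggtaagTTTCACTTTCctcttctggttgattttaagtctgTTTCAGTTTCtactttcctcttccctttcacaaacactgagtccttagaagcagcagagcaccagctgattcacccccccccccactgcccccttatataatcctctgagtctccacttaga
H2-T22 (fell; chr17:36042743-36042962, minus strand): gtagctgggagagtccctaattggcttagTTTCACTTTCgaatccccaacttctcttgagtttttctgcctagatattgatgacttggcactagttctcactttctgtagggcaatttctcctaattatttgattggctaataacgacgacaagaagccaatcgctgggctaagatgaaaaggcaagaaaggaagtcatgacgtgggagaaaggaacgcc
Cxcl10 (rose; chr5:92348890-92349109, minus strand): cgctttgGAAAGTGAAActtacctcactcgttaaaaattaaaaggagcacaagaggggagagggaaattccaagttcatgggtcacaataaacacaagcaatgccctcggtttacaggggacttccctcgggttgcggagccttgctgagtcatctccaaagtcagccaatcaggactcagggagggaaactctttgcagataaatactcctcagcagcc
Gbp2 (rose; chr3:142620443-142620662, plus strand): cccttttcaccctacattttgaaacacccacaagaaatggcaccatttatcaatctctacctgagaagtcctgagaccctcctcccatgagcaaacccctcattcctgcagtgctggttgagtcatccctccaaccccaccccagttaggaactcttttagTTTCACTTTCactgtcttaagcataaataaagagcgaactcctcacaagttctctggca
Ifit1 and Ifit3 each hold 2 matches in these windows and the other 3 genes hold 1.

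The largest fall by the same measure was in a run of neighbouring nonclassical class I genes. These H2-T genes encode MHC-like proteins of limited variety, and H2-T23 (Qa-1) presents peptides to NK and CD8 T cell receptors. H2-T22 went from 66.2, 66.9, 73.6 and 66.2 CPM in Blank to 4.86, 5.23, 4.12 and 5.04 CPM in IsoL, 14.1-fold lower (log2 change -3.82 ± 0.07; edgeR adjusted p = 4.8e-21). H2-T24 went from 44.8, 48.6, 44.1 and 44.8 CPM to 4.34, 4.51, 4.62 and 4.29 CPM and H2-T23 from 64, 61.1, 68 and 64.5 CPM to 8.86, 9.14, 10.1 and 9.51 CPM. The 4 IsoL libraries were close to each other in all 3 genes and far from every Blank library. In Model the means were 184 ± 4.87, 88 ± 6.58 and 224 ± 4.15 CPM, so that IsoL was 38.1-fold, 19.8-fold and 23.8-fold below Model.

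In the coordinates of the deposited table, whose build is not stated, these genes lie on the minus strand of chromosome 17: H2-T24 at 36316587 to 36331452, H2-T23 at 36340665 to 36343747 and H2-T22 at 36348020 to 36353639. The predicted gene Gm8810, at 36377000 and included by its name, had 49 counts in Blank and 7 in IsoL. Other genes of this stretch without a class I name were not listed here. Beyond it H2-T10, at 36426768 to 36432357, had 27.8, 29.1, 29.6 and 29 CPM in Blank and 29.2, 24.6, 26.7 and 29 CPM in IsoL and was not called (log2 change -0.08 ± 0.07; edgeR adjusted p = 0.353); without scaling factors and in the FPKM fits it was called lower. On the other side, the next tested class I gene, H2-Q10 at 35780986 to 35785460, had 70 counts in Blank and 28 in IsoL. It was called lower, though its libraries overlapped (log2 change -1.25 ± 0.34, edgeR adjusted p = 0.00279), and was 48.3-fold below Model. The classical genes H2-D1 and H2-K1 rose. H2-D1 went from 416, 421, 423 and 432 CPM to 1202, 1092, 1186 and 1083 CPM, and H2-K1 rose 1.56-fold. Class I genes are similar in sequence, and how the authors' counting treated reads that match several of them is not stated, so single members are uncertain.

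**Figure D4:**
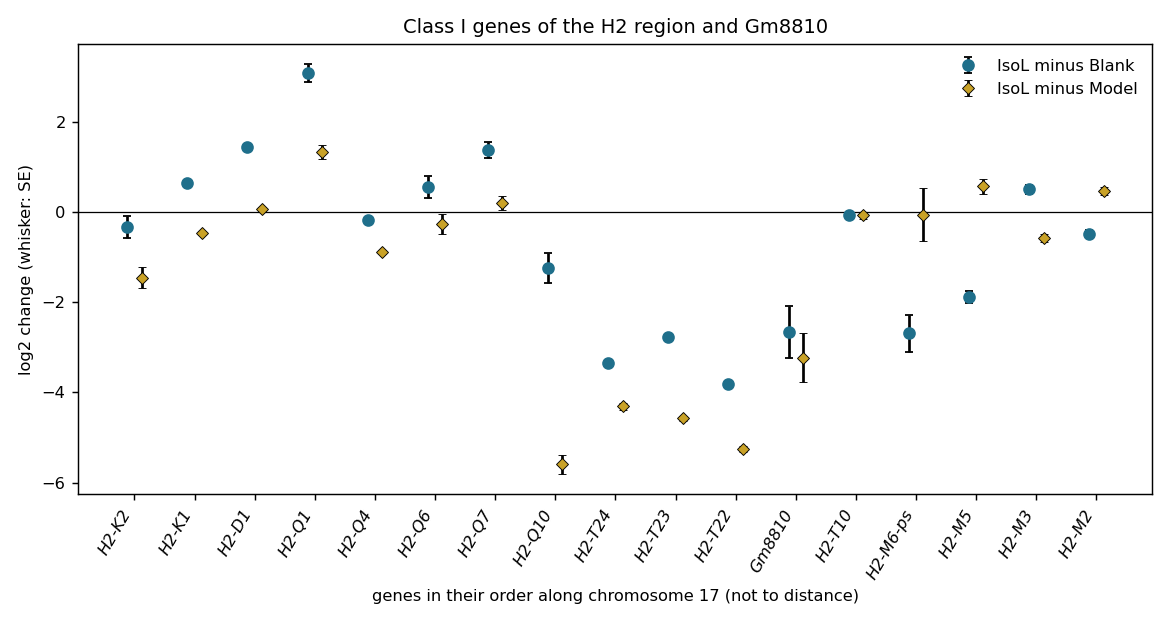
Log2 changes with SE whiskers are plotted for 17 tested genes, the class I genes of the H2 region and Gm8810, in their order along chromosome 17, as circles for IsoL minus Blank and diamonds for IsoL minus Model. Among the genes plotted, H2-T24, H2-T23, H2-T22 and Gm8810 follow one another below -2.5 in both, between H2-Q10 and H2-T10. Gm8810 was included by its name.

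Some genes, several of them already named above, stood outside both Blank and Model in IsoL while Model and Blank were near each other. They were picked out after their values had been seen. The limit between Model and Blank leaves out other genes outside both groups, such as Cyp24a1, Tslp, H2-T22 and H2-T23. With a log2 change of at least 1.5 against each group, less than 1 between Model and Blank, and a mean FPKM of 5 in some group, 9 genes were lower and 9 higher. Lower were H2-T24, Mx2, Ifit1, Ifit3, Usp18 and Mx1, all named above, and Mid1, Ifit3b and Cmpk2. Mid1, an X-linked ubiquitin ligase, went from 44.2, 38.9, 43.6 and 44.2 CPM in Blank to 10.9, 11.7, 10.9 and 11.2 CPM in IsoL, against 46 ± 1.68 CPM in Model. Higher were Gm6166, Gsta1, Scgb1b27, Rbp7, Scgb2b27, Gm15501, Tent5b, Gm12606 and Gm94. The predicted gene Gm6166 went from 16.1, 14.9, 15 and 15.3 CPM in Blank to 208, 138, 202 and 154 CPM in IsoL. Gsta1, a glutathione transferase, went from 1.21, 1.24, 1.05 and 1.9 CPM to 11.9, 13, 10.7 and 15.8 CPM, and Gm94 from 201, 204, 199 and 200.1 CPM to 684, 744, 555 and 709.9 CPM. In each of the genes given here by library, the IsoL and Blank libraries did not overlap. The choice by fold made this likely, and it held for 63.7% of all tested genes.

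Genes of skeletal muscle, cartilage and peripheral nerve were mostly lower in IsoL. All 17 skeletal muscle genes fell, with a median log2 change of -0.68 and summed levels of 6513 to 7190 CPM in Blank and 3233 to 4939 CPM in IsoL. The share of all tested genes that fell was 34%. Tnnt3, a troponin, was 1.89-fold lower. Of 14 tested cartilage genes 13 fell, Col2a1, the main cartilage collagen, among them at 2.01-fold lower, and Matn3 most, at 5.54-fold lower. Of 12 nerve and Schwann cell genes 10 fell. These levels are relative to the other genes of a library and do not measure amounts per ear.

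Of 15 sebaceous gland genes 9 fell and none rose, with summed levels of 8493 to 8869 CPM in Blank and 4421 to 5277 CPM in IsoL. Scd3, a desaturase of the gland, fell from 65.9, 60.1, 61.1 and 56.7 CPM to 9.83, 8.18, 8.87 and 7.73 CPM. Of 12 adipocyte genes 5 fell, a share near the 34% of all tested genes, or 10 without scaling factors, with Adipoq 1.5-fold lower, and 1 rose, Lipe, the hormone-sensitive lipase, at 2.25-fold. Fibroblast and matrix genes were mixed, 5 of 20 higher and 9 lower, or 4 and 14 without scaling factors. All 6 tested melanocyte genes rose. Dct, a melanin enzyme, went from 13.3, 11.8, 15.3 and 13.2 CPM to 39.5, 43.9, 36.5 and 40.1 CPM, against 16.5 ± 2.17 CPM in Model, and Ednrb, also expressed by endothelium, rose 9.22-fold.

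Genes of the proteasome and of protein synthesis mostly rose, and those that degrade branched-chain amino acids mostly fell. All 27 proteasome genes rose, at log2 changes of 0.17 to 0.91, as did 21 of 22 ribosome biogenesis genes and 18 of 20 aminoacyl-tRNA synthetases, with none lower. Among all tested genes, 36.5% rose and 34% fell. Of 18 stress-response genes 17 rose, with Asns, asparagine synthetase, at 3.97-fold and Hspa5, the chaperone BiP, at 2.6-fold. Slc7a11, the cystine importer, rose 22.9-fold and Slc7a5, an importer of large neutral amino acids, 3.86-fold. Of 20 genes that degrade branched-chain amino acids 19 fell, Aldh6a1 most, at 2.57-fold lower. Of 13 genes encoded in mitochondrial DNA, 10 were not called.

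Of 18 clock genes 15 fell and 3 rose. Hlf, a clock output factor, went from 180.1, 171, 186 and 197 CPM to 43.4, 41, 32.9 and 40.8 CPM, Dbp was 3.41-fold lower and Nfil3, which opposes them on the same sites, rose 4.35-fold. No source used here gives the hour at which the ears were taken. Other large falls were in Mrgprb3, a receptor of the Mas-related family, from 12.1, 15.5, 12.6 and 13.4 CPM to 1.09, 1.02, 1.12 and 0.916 CPM, and in Col4a6, a basement membrane collagen, at a log2 change of -3.12. Serpina3b, a serine protease inhibitor, Paqr7, a membrane progestin receptor, Slurp2, a secreted epithelial protein, and Apol7a, an apolipoprotein L, changed by -3.07, -2.85, -2.80 and -3.23 on the log2 scale. The microRNA gene Mir8116 had a log2 change of -3.62. Among the large rises, Ecel1, an endopeptidase of neurons, Krt36, a type I hair keratin, and Stfa1 had 5, 8 and 4 counts over the Blank libraries and log2 changes of 8.48, 8.31 and 7.99; without Blank-2 those of Ecel1 and Stfa1 were 9.27 and 9.26.

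The IsoL libraries differed most among themselves in hair genes. Krt71, a keratin of the inner root sheath, had 32.6, 29.3, 32.8 and 48.7 CPM in Blank and 6.4, 33.5, 7.12 and 0.286 CPM in IsoL. IsoL-2 was within the Blank range and IsoL-4 near 0, and the log2 change of -1.61 ± 0.44 (edgeR adjusted p = 0.00281) became -2.98 without IsoL-2. Krtap7-1, a hair shaft protein, had 2.46, 3.61, 2.11 and 4.79 CPM and 1.14, 10.9, 1.69 and 0.172 CPM and was not called; without IsoL-2 it was lower by a called log2 change of -1.71. Krtap8-1 followed, at 1.2, 9.74, 1.31 and 0.401 CPM in IsoL. Of 19 tested hair follicle genes 8 fell and 3 rose, against 34% and 36.5% of all tested genes. Without IsoL-2, 14 fell and 3 rose. Relative to the IsoL mean, the tested genes stood at log2 deviations of 0.14, 1.73, -0.48 and -1.38 in IsoL-1 to IsoL-4. Tchh (trichohyalin), of the inner root sheath and of some stratified epithelia, did not share that spread, with 56, 63.1, 56.4 and 103 CPM in Blank and 3953, 4208, 3071 and 3943 CPM in IsoL.

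Chil4, a chitinase-like protein of type 2 inflammation, had 41.9, 3.85, 11.6 and 28.4 CPM in IsoL against 0.164, 0.226, 0.234 and 0.231 CPM in Blank, and IsoL-2 was the lowest. The ribosomal RNA gene Rn18s-rs5 had 663, 3907, 1164 and 4273 CPM in IsoL, low in IsoL-1 and IsoL-3, against 3822, 4493, 4199 and 3825 CPM in Blank (edgeR adjusted p = 0.0673). Its call depended on the processing, and it was called lower in some alternatives and not in others.

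**Figure D5:**
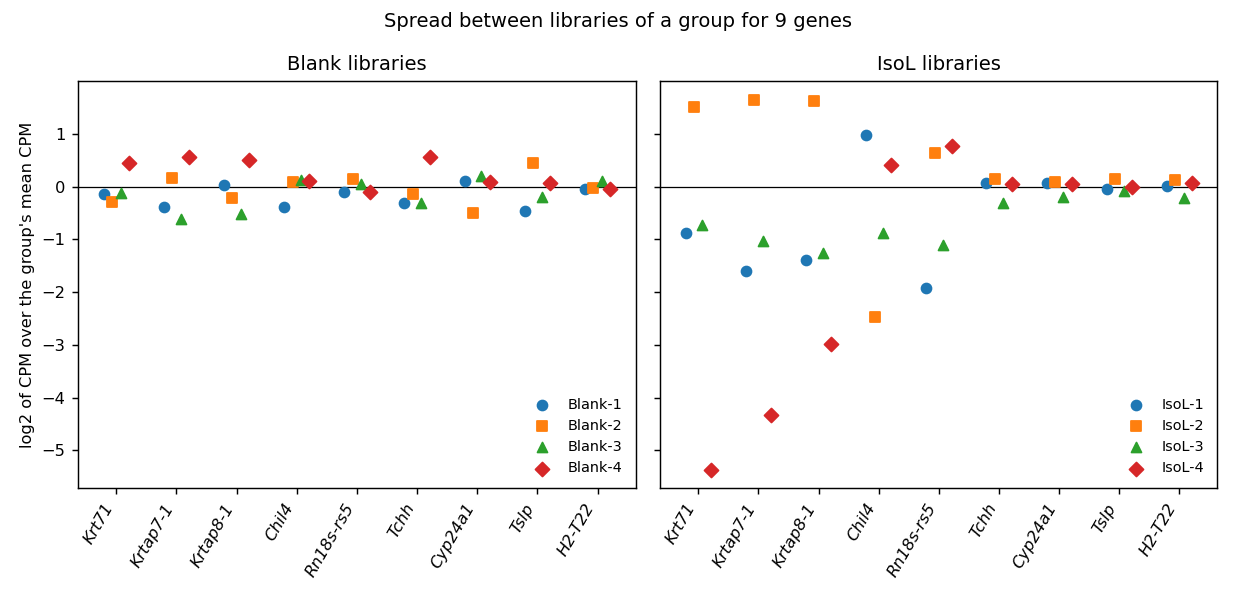
For 9 genes, each point is 1 library's CPM over its group's mean CPM on a log2 axis, Blank libraries on the left and IsoL libraries on the right. Krt71, Krtap7-1 and Krtap8-1 are highest in IsoL-2 and lowest in IsoL-4, while Cyp24a1, Tslp and H2-T22 stay near 0 in all 4 IsoL libraries.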

How the data were processed

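RNA from the ears of 4 Blank, 4 Model and 4 IsoL wild-type mouse samples was sequenced after poly-A capture, per the labels' protocols. Per the submitters' processing notes, the authors used fastp 0.22.0, HISAT2 2.1.0 and HTSeq 0.9.1; the genome build, the strand setting and the treatment of multiply matching reads are not given in the sources used here. The authors deposited raw counts per gene beside FPKM values, which equal the counts scaled by gene length and library total.

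Genes with FPKM of at least 1 in 4 of 12 libraries were tested on the deposited counts with edgeR 4.0.16 (R 4.3.3): TMM factors, 1 quasi-likelihood fit of the 3 groups, Benjamini-Hochberg adjustment over all 15403 genes, threshold 0.05. SE is the log2 change over the square root of F. CPM are scaled by TMM. Il13 and Il17a, below the filter, had two-sided exact permutation tests. Intervals and floors cover counting error only, since no molecular identifiers are described. Replicate numbers did not pair the libraries. Replicates differed by more than sampling noise. The fit was tested on simulated data. limma 3.58.1 and DESeq2 1.42.0 were alternatives.

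Named genes are the 12 largest rises and 12 largest falls among called genes without overlap, with FPKM of at least 5 in the higher group and no predicted-gene name, a panel, up to 4 called members of each of 64 lists, and the 5 genes that vary most among IsoL libraries; others named were chosen after their values were seen. Members and lists were chosen with earlier results of these data known. Promoters come from RefSeq. Some genes are not reported here.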

Additional observations from a re-analysis of the deposited data

Results flagged for a closer look

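Among the 49 genes given library by library, each group of 4 was examined for a library far from the other 3, by the share of the range taken up by the gap to the nearest one (Dixon's ratio, 95% critical value). This held in 11 of 98 groups. Chance gives about 1 in 20, but the genes include some named for their spread among the IsoL libraries, Krtap7-1 and Krtap8-1 among them, so the count cannot be read against that rate. In the IsoL group, IsoL-2 stood high for the hair genes Krtap7-1 (10.9 CPM against 0.172 to 1.69) and Krtap8-1 (9.74 CPM against 0.401 to 1.31), and IsoL-1 for Krt6b (5012 CPM against 4170 to 4289). In the Blank group, Blank-1 was high for Krt6b (43.8 CPM) and low for Chil4 (0.164 CPM). Blank-2 was high for H2-T24 (48.6 CPM) and low for Mid1 (38.9 CPM), Blank-3 was high for H2-T22 (73.6 CPM) and Cxcl10 (7.67 CPM), and Blank-4 was high for Krt5 (3365 CPM) and Tchh (103 CPM). Krtap7-1 and Krtap8-1 were called lower when IsoL-2 was left out. The cause of the gaps was not tested.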

How the results depend on the processing

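Called genes numbered 10852 and, with a stricter filter on low values, 7152 (3737 higher, 3415 lower; 1063 and 499 at 2-fold or more), since fewer genes were tested. With no filter, 2757 genes were higher and 1814 lower at 2-fold or more, since more were tested. A limma fit of log2(FPKM + 1) gave 970 higher at 2-fold or more, and 1410 with a pseudocount of 0.1; these fits also differ in scaling and test. No scaling factors gave 1468 higher and 1459 lower. Model against Blank gave 7056 calls with the stricter filter, in place of 10805. Leaving out 1 IsoL or Blank library (no Model library was left out) gave 10435 to 10742 calls, 5430 to 5597 higher, 5004 to 5177 lower, 1727 to 1805 higher and 900 to 1010 lower at 2-fold or more, 7107 to 7544 calls against Model and 10362 to 10963 for Model against Blank. The share of calls that were higher was 45.8% with upper-quartile factors and 36% to 36.1% in the FPKM fits. Same-numbered libraries did not deviate together (correlations of -0.132 to 0.032, and -0.084 to 0.134 for other numbers); a fit with the replicate block called 10800 genes, 10718 of them shared. The log2 change of Krtap7-1 was -1.71 without IsoL-2, a reversed direction, and 0.49 without IsoL-4. Krt10 and H2-T10 were called lower without scaling factors (log2 changes of -0.20 and -0.27). H2-Q10 lost its call with limma's voom weights (adjusted p = 0.0664). Rn18s-rs5, not called in the main fit, was called lower without scaling factors (log2 change -0.90, edgeR adjusted p = 0.0231). The same held with upper-quartile factors, no filter, the FPKM fits, voom weights, the replicate block, and without IsoL-2 or IsoL-4. List medians changed sign for hair follicle (-2.08 to 0.01), IL-17 and IL-23 (-0.06 to 0.17), eicosanoid (-0.18 to 0.03), heat shock (-0.12 to 0.13) and nuclear respiratory genes (-0.05 to 0.16). The median of cholesterol synthesis genes ran from 0 to 0.25. The Il13 difference in mean CPM was 0.105 to 0.224 and that of Il17a 0 to 0.0404. The causes were not tested. Depth limits Il13, Il17a, Ly6g and other genes with few Blank counts.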

Other observations

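Other gene lists, read against the 36.5% of tested genes called higher and 34% lower, moved as follows. Of 12 Toll-like receptors, which sense microbial products, 10 rose and 2 fell (Tlr3 and Tlr5); Tlr1 rose 11.1-fold. Of 18 complement and coagulation genes 15 rose, C5ar1, the receptor for C5a, by 14.8-fold, and C4b and F3 fell. Of 16 matrix metalloproteinases and inhibitors 14 rose, Timp1 by 10.9-fold, and Timp3 was 2.46-fold lower. Of 19 STAT and SOCS pathway genes 12 rose and 4 fell; Osm, a cytokine of the IL-6 family, rose 43.2-fold. Of 6 tested gasdermins, which form membrane pores, 5 rose, Gsdmc by 8.09-fold. Of 14 IL-1 and IL-36 family genes 10 rose and 2 fell, and of 18 tested immediate early genes 14 rose, Junb by 4.82-fold, and Fosb and Egr2 fell. Of 8 tested leukocyte adhesion genes 7 rose.

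Among lists of metabolism and detoxification, 16 of 25 tested glutathione and xenobiotic genes rose and 9 fell, with Srxn1, an antioxidant target of NRF2, 6.03-fold higher and Akr1c14 5.87-fold lower. Of 19 glycolysis genes 14 rose and 3 fell (Ldhb, Pfkm and Aldoc); Slc16a3, a lactate exporter, rose 3.2-fold. Of 14 amino acid transporters 8 rose and 4 fell, and of 15 heat shock chaperones 7 rose and 4 fell. Of 26 nuclear-encoded respiratory chain genes 15 rose and 3 fell, at log2 changes of -0.18 to 0.81, but 3 rose and 10 fell without scaling factors. Of 17 eicosanoid genes 8 rose and 5 fell, or 7 and 9 without scaling factors. Of 6 tested IL-17 and IL-23 genes 3 rose and 2 fell, or 2 and 3 without scaling factors.

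Among lists of cells, 5 of 6 tested basophil markers rose, Fcer1a by 8.89-fold, and 4 of 7 tested markers of cytotoxic lymphocytes, Gzmb by 17.2-fold. Of 11 tested dendritic and Langerhans cell markers 8 rose and 1 fell, and 3 of 4 tested erythrocyte genes rose. Only 2 of 7 B and plasma cell markers could be tested, and both, Ighm and Igkc, were higher. Of 5 tested mucosal and simple keratins 3 rose, Krt4 by 28.9-fold, and Krt23 and Krt8 fell.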
